A study of Mus musculus with 2 samples.

Results

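The 3 genes of the miR-7 family, Mir7-1, Mir7-2 and Mir7b, and the gene Mir671 encode the microRNAs (miRNAs) that pair with Cdr1as, a circular RNA abundant in brain. They were chosen by annotated gene name and make up 4 of the 2202 miRNA genes counted. Mir7j, a counted gene of similar name, is not among the 4 and enters no family sum. Small RNA was sequenced from cerebral cortex of mouse strain B6NCrl, in a single group of 2 libraries numbered as biological replicates 1 and 2. The labels describe both as wild-type female controls from the MODEL-AD source, but the separate fields for sex and age are marked not collected. Each library has its own tissue record and both cite the same donor record, so separate animals are not stated and the spread between libraries may be technical. No treatment, genotype or other tissue was compared.

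miRNAs are short RNAs that guide repression of messenger RNAs, mainly through the seed, the bases near their 5′ end. miR-7 is made in neurons and in endocrine cells of the pituitary and pancreas. Cdr1as carries many sites with partial pairing to miR-7, while its single site for miR-671 pairs almost along its whole length and lets that miRNA direct cutting of the circle. In mouse brain the long noncoding RNA Cyrano triggers destruction of miR-7, and loss of Cdr1as lowers miR-7 and raises miR-671. Cdr1as and Cyrano are not miRNA genes and were not measured here.

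The mature sequences below, from RefSeq (GRCm38.p6), are shown because they decide which reads can be told apart and which sites can pair. All 4 genes matched an entry. Seeds, bases 2 to 8 from the 5′ end, are in capitals.
miR-7a-5p (Mir7-1 and Mir7-2): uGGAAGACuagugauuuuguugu
miR-7b-5p (Mir7b): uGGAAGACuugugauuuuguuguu
miR-7a-1-3p (Mir7-1): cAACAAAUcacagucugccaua
miR-7a-2-3p (Mir7-2): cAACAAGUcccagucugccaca
miR-7b-3p (Mir7b): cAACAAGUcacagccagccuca
miR-671-5p (Mir671): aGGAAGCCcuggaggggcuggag
miR-671-3p (Mir671): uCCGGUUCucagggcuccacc

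The 5′ arms of the miR-7 genes share the seed GGAAGAC, and no gene outside the family in the RefSeq table has an arm with it. miR-7a-5p and miR-7b-5p differed at 1 of 23 compared bases, A10U, counted from 1 at the 5′ end of miR-7a-5p. The 3′ arms of Mir7-1 and Mir7-2 differed at 3 of 22 bases (A7G, A10C and U21C). The first 8 bases of miR-671-5p differed from those of miR-7a-5p at U1A and A7C, so the seeds of both Cdr1as partners are 1 base apart. None of the 5 seeds of the 4 genes occurred in another gene of the table.

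Mir7-1 and Mir7-2 both encode miR-7a-5p, and their precursors share a run of 24 bases. The precursors are shown with that run in capitals.
Mir7-1 precursor: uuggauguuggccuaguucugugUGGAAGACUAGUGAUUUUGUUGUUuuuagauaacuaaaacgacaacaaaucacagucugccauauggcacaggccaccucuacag
Mir7-2 precursor: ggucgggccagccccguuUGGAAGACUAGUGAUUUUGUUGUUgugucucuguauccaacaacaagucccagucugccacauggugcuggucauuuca
The whole of miR-7a-5p lies inside this run, so an exact miR-7a-5p read fits both genes. Reads placed at several loci, 43.9% of all reads in replicate 1 and 47.9% in replicate 2, enter no gene's count in these tables. The longest run that Mir7b shares with Mir7-1 or Mir7-2 is 14 bases, and each of its arms, like those of Mir671, occurs in no other annotated miRNA precursor. The counts of Mir7-1 and Mir7-2 therefore hold only reads that tell the copies apart, such as those of the 3′ arms, and are not levels of miR-7a-5p. The tables do not split counts by arm.

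The 4 genes lie on 4 chromosomes (mm10, counted from 1, GENCODE M21). Mir7-1 (ENSMUSG00000065434.1) lies on the minus strand of chromosome 13, 58392779 to 58392886, in an intron of Hnrnpk, which encodes an RNA-binding protein. It overlaps no exon of the 34 Hnrnpk transcripts. Mir7-2 (ENSMUSG00000065609.1) lies on the plus strand of chromosome 7, 78888277 to 78888373, outside annotated genes, 7481 bases from Aen. Mir7b (ENSMUSG00000065491.1) lies on the plus strand of chromosome 17, 56242988 to 56243098, with the noncoding gene AC026385.1 ending 183 bases away on the same strand. Mir671 (ENSMUSG00000076387.1) lies on the plus strand of chromosome 5, 24592114 to 24592211, within an exon of 2 of the 6 transcripts of Chpf2, a chondroitin synthesis gene. The same stretch is within an exon of 1 of the 9 transcripts of Smarcd3 on the opposite strand. No read of either library was counted on the opposite strand of any of the 4 genes.

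Mir7b held most of the uniquely placed counts of the family. Its 7680 counts in replicate 1 and 15296 in replicate 2 correspond to 1734 and 2190 CPM, the count of a gene scaled to 1e6 sense counts over all miRNA genes of the library. A small RNA read covers a whole mature miRNA, so CPM was not divided by length. Mir7b averaged 1962 ± 322 CPM (SD, n = 2) and ranked 67 of 2202 genes. Mir671 had 9596 counts (2166 CPM) in replicate 1 and 9030 (1293 CPM) in replicate 2, or 1729 ± 618 CPM, at rank 73. The levels of Mir7b and Mir671 overlapped, with Mir671 higher in replicate 1 and Mir7b higher in replicate 2, so their order does not hold beyond the spread.

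The copies of miR-7a were lower. Mir7-2 had 834 counts (188 CPM) in replicate 1 and 595 (85.2 CPM) in replicate 2, a mean of 137 ± 72.9 CPM (SD, n = 2) at rank 187. Mir7-1 had 117 counts (26.4 CPM) in replicate 1 and 181 (25.9 CPM) in replicate 2, a mean of 26.2 ± 0.356 CPM at rank 259. Both libraries of Mir671 and Mir7b lay above both of Mir7-2, and those lay above both of Mir7-1. Exact 95% Poisson intervals, which cover counting error only, were 21.8 to 31.7 CPM in replicate 1 and 22.3 to 30.0 CPM in replicate 2 for Mir7-1. For Mir7-2 they were 176 to 202 CPM in replicate 1 and 78.5 to 92.3 CPM in replicate 2. The mean of Mir7b was 14.3 times that of Mir7-2 and 75 times that of Mir7-1, a gap between counts of uniquely placed reads that does not give the amounts of miR-7b and miR-7a.

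**Figure D1:**
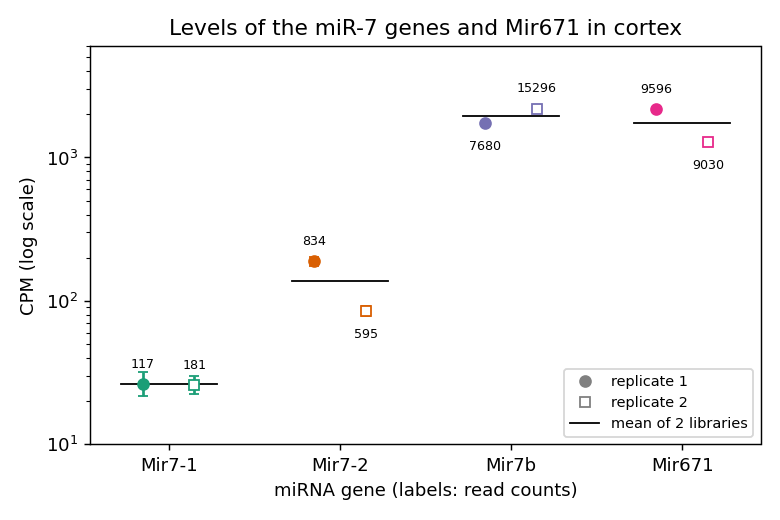
Level of each gene in CPM (log axis) in replicate 1 (filled circles) and replicate 2 (open squares), with read counts as labels, exact 95% counting intervals as bars and the mean as a line. Mir7b and Mir671 lie between 1293 and 2190 CPM, Mir7-2 at 188 and 85.2 CPM, and Mir7-1 near 26 CPM in both libraries.

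Summed, the miR-7 family held 1948 CPM in replicate 1 and 2301 CPM in replicate 2, a mean of 2125 ± 249 CPM (SD, n = 2). The 4 genes together held 0.411% and 0.359% of the counts. Mir7b made up 89.0% of family counts in replicate 1 (95% Wilson interval 88.3 to 89.6) and 95.2% in replicate 2 (94.8 to 95.5). Mir7-2 made up 9.66% (9.06 to 10.3) and 3.70% (3.42 to 4.01), and Mir7-1 made up 1.36% (1.13 to 1.62) and 1.13% (0.974 to 1.30). The shift in composition of these counts was thus between Mir7b and Mir7-2, while the intervals of Mir7-1 overlapped. The sum and shares leave out exact miR-7a-5p reads, so they do not give the proportions of miR-7a and miR-7b.

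All 4 genes reached the detection minimum of 2 CPM in each library, as did 438 of 2202 genes, of which the median was 57.8 CPM. Mir7b stood above 371 and Mir671 above 365 of the other detected genes, Mir7-2 above 251 and Mir7-1 above 179. Against 23 neuron-enriched miRNA genes, from Mir132 at 52078 CPM to Mir124a-2 at 1.08 CPM, Mir7b was higher than 16, Mir671 than 15, Mir7-2 than 10 and Mir7-1 than 8. Of those 23 genes, 16 share a run of at least 20 bases with another miRNA precursor, as Mir7-1 and Mir7-2 do. Among the 16 are all the Mir124a and Mir9 genes, which lay below both Mir7b and Mir671. Mir128-1, Mir138-1, Mir138-2 and Mir129-2, also among the 16, lay above both. Counts of such genes leave out reads that fit several loci, so the comparison does not rank mature miRNAs by amount. Of the detected genes, 85 (19.4%) share a run of at least 20 bases with another precursor, Mir7-1 and Mir7-2 among them. The median level was 77.8 CPM over those 85 and 56.9 CPM over the remaining 353. Genes below the detection minimum, such as Mir124a-2 with such a run, do not enter these medians. Reads that fit several loci enter no gene's count, but the size of this loss per gene was not tested and the medians do not measure it. Mir7-2 ranked 39 and Mir7-1 ranked 61 among the 85.

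**Figure D2:**
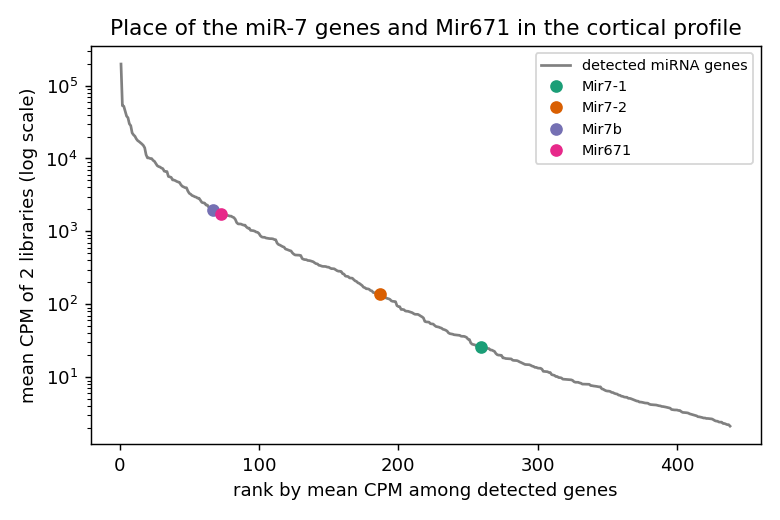
Mean CPM of the 438 detected genes (log axis) by rank, with the 4 genes marked. Mir7b (1962 CPM) and Mir671 (1729 CPM) sit close together at ranks 67 and 73, and Mir7-2 (137 CPM) and Mir7-1 (26.2 CPM) lie further down at ranks 187 and 259.

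The genes with the closest levels were found by distance on log2(CPM + 1) over the 2 libraries, a likeness that says nothing of shared control. Nearest to Mir7b was Mir128-2, a copy of a neuronal miRNA, at 1483 and 1889 CPM in replicates 1 and 2 (distance 0.31), followed by Mir143 (0.36) and Mir676 (0.40). Nearest to Mir671 was Mir7689 at 2123 and 1177 CPM (0.14), then Mir212 (0.20), of the activity-regulated Mir132 locus, and Mir30e (0.23). Nearest to Mir7-2 was Mir3547 at 183 and 86.7 CPM (0.046), then Mir7044 (0.25) and Mir3072 (0.35). Nearest to Mir7-1 was Mir6944 at 29.6 and 26.3 CPM (0.16), then Mir1982 and Mir7688 (both 0.21).

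The next comparison was between the libraries, on log2 ratios of replicate 1 over replicate 2 after TMM scaling. Mir7-2 was higher in replicate 1, with a log2 ratio of 1.02 (exact 95% interval 0.87 to 1.17, adjusted p = 1.24e-39 in an exact binomial test). Mir671 had a log2 ratio of 0.62 (0.58 to 0.66) and Mir7b one of -0.46 (-0.50 to -0.42), so both intervals leave out 0, on opposite sides of it. Mir7-1 was at -0.10 (-0.45 to 0.25, adjusted p = 0.688 in the exact test), an interval that spans 0. The test sets 2 libraries against their counting error and says nothing of conditions.

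Calls required both a ratio of 2 or more and p under 0.05 after adjustment over the 438 detected genes. Of the 4 genes, 1 was called, Mir7-2, against a background of 18.0% of detected genes (79 of 438). By direction, 38 detected genes (8.68%) were called toward replicate 1, as Mir7-2 was, and 41 (9.36%) toward replicate 2. Scaling by library totals moved the median log2 ratio of all detected genes to 0.16, against 0.03 with TMM, and split the calls into 55 toward replicate 1 and 29 toward replicate 2. At the adjusted p alone, 3 of the 4 genes passed, against 63.9% of detected genes, so passing it was common. The median size of the log2 ratio over detected genes was 0.50, above that of Mir7-1 and Mir7b and below that of Mir671 and Mir7-2.

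The call of Mir7-2 lay at its limit. Its interval spans a log2 ratio of 1, and the ratio was 0.99 with DESeq2 size factors and 0.92 with no minimum level, and neither reached the limit. Its direction held under the 9 settings run, from 0.92 to 1.14. They include the main setting and the call limit of 1.5, which leaves the ratios unchanged. In the main setting, 36 detected genes had a higher ratio than Mir7-2. Of the 56 other genes within 2 times of its mean level, 10 were called (17.9%), with a median log2 ratio of -0.21. Mir671 ranged from 0.34 to 0.74 and Mir7b from -0.56 to -0.25 over the same settings. Mir7-1 changed sign among them (-0.19 to 0.30), so no direction is given for it. The uniquely placed counts of the family, summed, had a log2 ratio of -0.37. Under 6 other settings it lay between -0.46 with no minimum level and -0.24 with library totals.

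**Figure D3:**
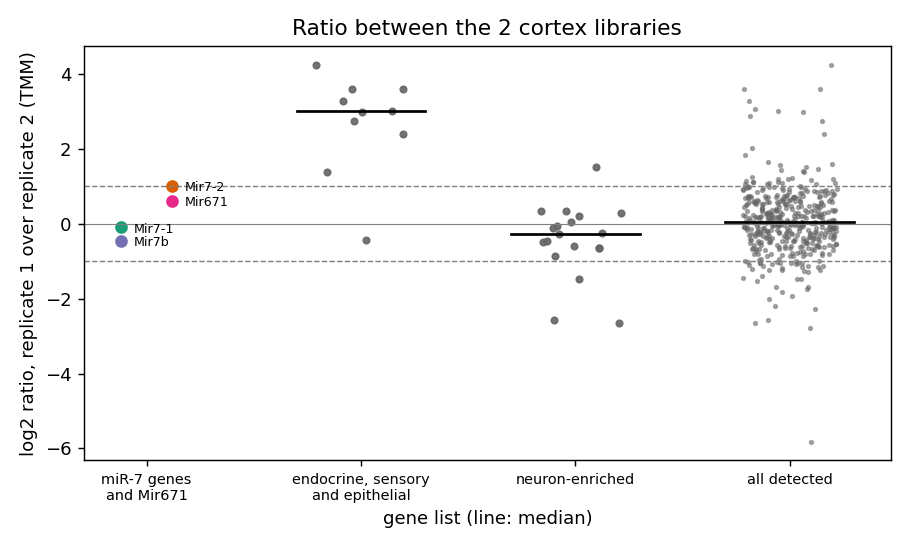
Log2 ratio of replicate 1 over replicate 2 (TMM) for the 4 genes and for the detected members of the endocrine, sensory and epithelial list, the neuron-enriched list and all detected genes, with medians as lines and ratios of 2 as dashed lines. Mir7-2 sits at 1.02, Mir671 at 0.62, Mir7-1 at -0.10 and Mir7b at -0.46, while the endocrine, sensory and epithelial list has a median of 3.0.

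Ratios of 2 genes within a library do not depend on the scaling. There were 0.140 counts of Mir7-1 for each of Mir7-2 in replicate 1 (exact 95% interval 0.115 to 0.170) and 0.304 in replicate 2 (0.256 to 0.360). Mir7b had 9.21 counts for each of Mir7-2 in replicate 1 (8.57 to 9.90) and 25.7 in replicate 2 (23.7 to 27.9), a ratio that was 0.358 times as large in replicate 1. Mir671 had 11.5 counts for each of Mir7-2 in replicate 1 (10.7 to 12.4) and 15.2 in replicate 2 (14.0 to 16.5). None of these pairs of intervals overlapped. Mir7b to Mir671 stood at 0.800 in replicate 1 (0.777 to 0.825) and 1.69 in replicate 2 (1.65 to 1.74). Only Mir7b to Mir7-1 overlapped among the 6 pairs, at 65.6 (54.7 to 79.5) in replicate 1 and 84.5 (73.0 to 98.4) in replicate 2. The overlap does not show that the proportion of Mir7b to Mir7-1 was the same in both.

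Marker genes of endocrine, sensory or epithelial cells also differed between the libraries. In a list of 10 genes abundant in endocrine, sensory or epithelial cells, 9 were called higher in replicate 1, against a background of 8.68%, with a median log2 ratio of 3.0 beside 0.03 over all detected genes. Mir375, abundant in endocrine cells that also make miR-7, was counted 8627 times in replicate 1 and 1869 times in replicate 2 (log2 ratio 2.74). Mir182 (3.29) and Mir183 (2.99) of sensory cells and the epithelial genes Mir200c (3.59), Mir429 (2.39) and Mir200b (1.38) were called too, and Mir184 (-0.44) was the exception. The list took up 2.95% of replicate 1 and 0.397% of replicate 2, with no member at 0. Mir7-2 and Mir671 had ratios in the same direction as this list, while Mir7b (-0.46) and the family sum (-0.37) had the opposite sign. No direction is given for Mir7-1 (-0.10), which lay within counting error and changed sign among the settings. The part of these cells in any of the ratios was not tested. In bulk tissue, a change in the number of cells of a type cannot be told apart from a change in their RNA per cell.

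In the neuron-enriched list, 4 of 19 detected genes were called, a share near the background of 18.0%. Mir153 was called higher in replicate 1 (1 gene, background 8.68%) and Mir9-1, Mir9-3 and Mir135a-2 higher in replicate 2 (3 genes, background 9.36%). Mir153 had 175 counts in replicate 1 and 88 in replicate 2. In the same order, Mir9-1 had 49 and 449, Mir9-3 18 and 157, and Mir135a-2 42 and 170. These last 3 genes share a run of at least 20 bases with another precursor, so their counts leave out reads that fit several loci. The median log2 ratio of the list was -0.29. Its sum was 8.70% of the counts in replicate 1 and 10.3% in replicate 2. Its 5 highest genes, Mir132, Mir598, Mir128-1, Mir383 and Mir138-1, had log2 ratios from -0.66 to 0.20 and were not called. Mir7b, at -0.46, lay within that range.

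The ratio between libraries rose with the GC content of the precursor, by 0.35 (log2) for each 10 percentage points over 438 genes (Pearson's r = 0.36 across genes, which share the 2 libraries). The precursor of Mir671 has 61.2% GC, that of Mir7-2 50.5%, that of Mir7b 46.8% and that of Mir7-1 41.7%, against a median of 53.2%. With this trend removed, the log2 ratio was 1.11 for Mir7-2, 0.34 for Mir671, -0.25 for Mir7b and 0.30 for Mir7-1. The ratios of Mir671 and Mir7b were then nearer to 0, with the same sign, and those of Mir7-2 and Mir7-1 were further from it. Mir671 lay 0.28, Mir7-1 0.25 and Mir7-2 1.05 above the fitted line, and Mir7b lay -0.30 from it. The labels cite a different adapter trimming document for each library, so trimming and replicate cannot be told apart.

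**Figure D4:**
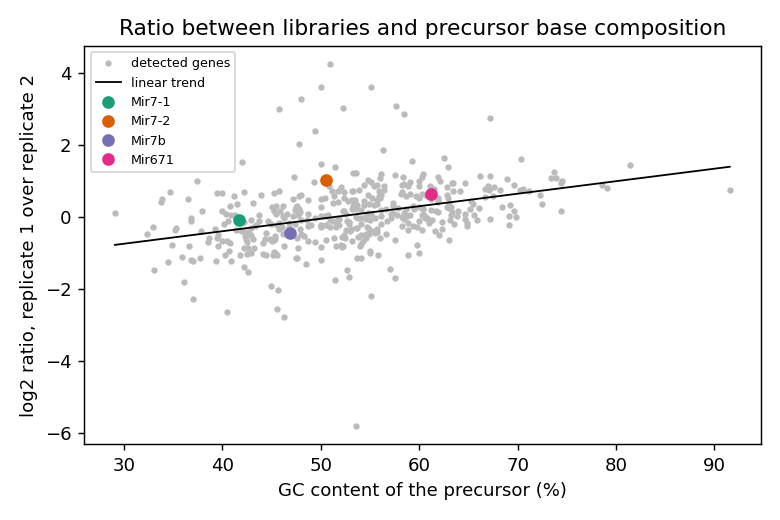
Log2 ratio of replicate 1 over replicate 2 by GC content of the annotated precursor (%) for the 438 detected genes, with the linear trend and the 4 genes marked. Mir671 (61.2% GC, ratio 0.62) and Mir7-2 (50.5% GC, ratio 1.02) lie above the line, by 0.28 and 1.05, and Mir7b (46.8% GC, ratio -0.46) lies below it.

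The annotation places the shared partner of these miRNAs on chromosome X. An exon of the noncoding gene C230004F18Rik (61183248 to 61186174, plus strand, mm10), 2927 bases long, lies opposite Cdr1, and RefSeq lists Cdr1as as a synonym of this gene. Within this gene, the transcript densest in miR-7 seed matches was taken, and of it the exon with the most. The windows of other genes below were not picked this way. The exon holds 123 copies of GTCTTCC, the letters complementary to the miR-7 seed, on its own strand and 0 on the other. The median distance was 18 bases from start to start. In the first 2927 bases of the longest transcript of 12714 other genes, 24.2% held the motif on the transcript strand, with at most 4 copies, and 31.1% held it on the other strand. GGCTTCC, complementary to the miR-671-5p seed, occurred once in the exon and in 28.9% of the other windows. The matches describe letters only and show no binding. The best match along the whole of miR-671-5p and the 2 best for miR-7a-5p, without gaps, are shown with complementary bases in capitals.
miR-671-5p match, chrX:61186029-61186051: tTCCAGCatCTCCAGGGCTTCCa
miR-7a-5p match, chrX:61183571-61183593: tCcAgAAAAatcCaAGTCTTCCA
miR-7a-5p match, chrX:61183533-61183555: tCcAgAAAAattCatGTCTTCCA
The miR-671-5p match was complementary at 19 of 23 bases. Over the 123 miR-7 matches the number was 8 to 16 of 23, with a median of 13.

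**Figure D5:**
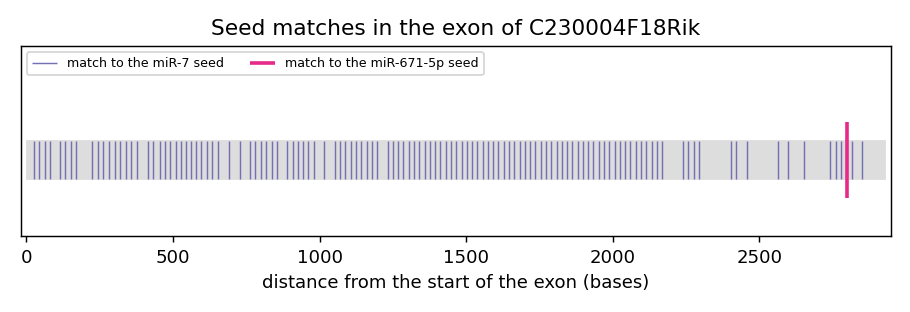
Map of the 2927-base exon of C230004F18Rik, by distance from its start in bases, with the 123 matches to the miR-7 seed as thin lines and the single match to the miR-671-5p seed as a thick line. The miR-7 matches run from base 26 to base 2851, and the miR-671-5p match lies at base 2797, near the end.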

How the data were processed

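The authors deposited 1 table of raw read counts per library, per the file headers and labels on the mm10 assembly and M21 annotation. The sources used here name no aligner or counter. Each table gives counts on either strand, in the sense direction and on the opposite strand. Summary lines that name no gene were left out. Unmapped reads were 17.0% of 12506469 reads in replicate 1 and 11.1% of 18276311 in replicate 2, and sense reads outside genes 3.67% and 2.81%. Sense counts in genes were 4429633 and 6985784, so a count of 0 allows up to 0.677 and 0.429 CPM (3 counts). Reads carry no molecular identifiers, so intervals and floors cover counting error only.

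Sense counts were scaled to CPM. Between libraries, each gene's counts entered a two-sided exact binomial test with library sizes scaled by TMM (edgeR 4.0.16), with 0.5 counts added in log2 ratios and Benjamini-Hochberg adjustment. With 1 library on each side, a quasi-likelihood test between them had no residual degrees of freedom. The test was checked on simulated counts. Genes named were the 4 genes, the 3 nearest in level to each, and the 5 highest of each marker list. In addition, Mir153, the Mir9 and Mir124a genes, Mir135a-2, Mir375 and Mir184 were named after their values were seen. So were Mir139, the most abundant gene, and the copy pairs in the closing observations (Mir26a, Mir24, Mir135a, Mir218, Mir129, Mir128 and Mir138). Mir7j was named for its likeness in name to the family. The genes and lists were chosen with earlier results of these data known. Alternatives were DESeq2 1.42.0 size factors, library totals, other filters, the unstranded column, thinning, GC correction and a ratio of 1.5.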

Additional observations from a re-analysis of the deposited data

How the results depend on the processing

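The log2 ratio of Mir7-1, replicate 1 over replicate 2, turned from -0.10 to 0.030 with library totals and 0.30 with the GC trend removed. Mir7-2 lost its call with DESeq2 size factors (0.99) and without a filter on low counts (0.92), and Mir671 was called at a ratio of 1.5 (0.62). The calls over all detected genes numbered 52 with a filter of 10 CPM, which tests 294 genes, and 171 at a ratio of 1.5, and those in the neuron-enriched list 2 and 8. The level of Mir7-1 was 27.6 CPM with the unstranded column, 24.0 CPM relative to all uniquely placed reads and 32.6 CPM without Mir139, the most abundant gene. Without Mir139, Mir7b was at 2451 CPM and the family sum at 2653 CPM. These shifts come from the smaller or larger denominator. Of 32 log2 ratios of the 4 genes under alternatives, 27 kept their direction and their side of the call. The alternative denominators are shared by the 4 genes of a library, so they could not change the order of the genes within it. No paired analysis was possible because there is 1 group. Since both libraries cite 1 donor record, it is not known whether their spread is one between animals.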

Other observations

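Marker miRNAs of other cell types were counted as follows. The oligodendrocyte genes Mir219a-1, Mir219a-2 and Mir338 together held 0.711% in replicate 1 and 0.785% in replicate 2. The endothelial gene Mir126a held 0.164% and 0.295%, and the microglia and leukocyte genes Mir150, Mir155, Mir223 and Mir142 held 0.0896% and 0.128%. The red blood cell genes Mir451a, Mir144 and Mir486 held 0.00133% and 0.00203%, the muscle genes 0.00199% and 0.00295%, all from Mir206, with 5 of 6 muscle genes at 0 in both libraries, and the liver gene Mir122 held 0.00253% and 0.00313%. Of the 11 detected genes of these 6 lists, 0 were called in the exact binomial test with a ratio of 2, against a background of 18.0%. Mir126a lay just short of it, at a log2 ratio of -0.97, and was called at -1.003 with DESeq2 size factors and at -1.07 with no minimum level. Mir451a was called as well with no minimum level, and Mir142 and Mir150 with the GC trend removed.

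Among 20 pairs of detected genes named as copies 1 and 2, a comparison chosen after the values of Mir7-1 and Mir7-2 were seen, the ratio of the copies shifted between libraries by a median of 1.37 times. Mir7-1 and Mir7-2, at 2.17 times, followed Mir26a (28.1 times, on 19 and 27 counts in replicate 1) and Mir24 (3.79 times). The copy ratios of the 5 pairs in the neuron-enriched list shifted by 1.98 times for Mir135a, 1.85 times for Mir218, 1.36 times for Mir129, 1.14 times for Mir128 and 1.08 times for Mir138. These ratios rest on reads that tell the copies apart and were not tested.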
